A study of Mus musculus with 24 samples.

Results

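Expression of 10 genes of the Hippo pathway was described across all 6 groups of the series. The genes were selected by symbol and are Yap1, Wwtr1 (which encodes Taz), Tead1, Tead4, Lats2, Amotl2, Ajuba, Ccn1 (older symbol Cyr61), Ccn2 (older symbol Ctgf) and Ankrd1. They are 10 of the 54532 genes in the count table, and all 10 were among the 22570 genes tested. RNA-seq was performed on whole kidneys of 24 C57BL/6 mice (C57BL/6 J in the methods of the study) at 18 days of age, and in every mouse 1 copy of Pkd1, the gene mutated in most human polycystic kidney disease, was the missense allele RC. In the RC/+ mice the second Pkd1 allele was floxed but intact, whereas in the RC/- mice it was inactivated by Ksp-Cre, a transgene whose kidney-specific cadherin promoter acts in tubule epithelium. The D18 and D53 lines, each derived from 1 founder, additionally lacked the miR-17 binding motif in the 3′ UTR of the RC allele. The RC/+ and RC/- mice without this deletion are called the unedited line for short. The study does not describe them as a separate line, because edited and unedited genotypes came from the same breeding pairs. The founder of these unedited mice is not given in the labels. There were 3 mice in each of the RC/+, RC/+ D18 and RC/+ D53 groups, 5 mice in each of the corresponding cystic groups, RC/-, RC/- D18 and RC/- D53, and 1 library per mouse. Replicates keep the numbers of the labels, which run from 4 to 27 over all groups. Because Cre was carried with the RC/- genotype, the effects of Cre and of the lost allele cannot be told apart. Nor can the effects of the edit and of founder background, wherever an edited group is compared with an unedited one. The labels do not name sequencing batches or pairs of mice.

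Hippo signaling is a kinase cascade that restrains tissue growth. Its kinases Lats1 and Lats2 phosphorylate the coactivators Yap and Taz, which then stay out of the nucleus. Unphosphorylated Yap and Taz enter the nucleus and activate genes together with Tead DNA-binding factors. In the kidney, Yap activity is known to respond to stretch, matrix stiffness and tubule injury. The RNA level of Yap1 or Wwtr1 does not report the location or activity of the protein, which is regulated largely after translation.

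Promoter windows are shown first, because Tead factors bind a known short motif. RefSeq sequences from 250 bases before to 50 bases after a start site were matched for 7 of the 10 genes, and Ccn2, Tead1 and Tead4 had no entry. The core Tead motif GGAATG was searched on both strands, that is also as CATTCC, and it was found in all 7 genes. By comparison, 16.6% of 27025 genes with a window and 14.7% of all 32851 windows held it. The match is a description of these windows and does not show binding. Several of the genes were chosen as known Yap targets, so the share is not independent of that choice. Its relation to the levels in cystic kidneys was not tested. The following 30-base stretches show each match on the strand of the gene (build GRCm38.p6), with the motif in capitals.
Yap1, chr9:8004720-8004749, minus strand: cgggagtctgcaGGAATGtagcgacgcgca
Wwtr1, chr3:57576029-57576058, minus strand: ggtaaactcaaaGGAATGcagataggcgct
Lats2, chr14:57746102-57746131, minus strand: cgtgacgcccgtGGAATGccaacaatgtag
Amotl2, chr9:102717727-102717756, plus strand: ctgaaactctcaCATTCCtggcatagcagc
Ajuba, chr14:54577830-54577859, minus strand: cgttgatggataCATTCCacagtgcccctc
Ajuba, chr14:54577808-54577837, minus strand: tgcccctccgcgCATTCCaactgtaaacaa
Ccn1, chr3:145650071-145650100, minus strand: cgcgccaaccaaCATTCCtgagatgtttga
Ankrd1, chr19:36120037-36120066, minus strand: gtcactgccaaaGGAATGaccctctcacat
Ankrd1, chr19:36119950-36119979, minus strand: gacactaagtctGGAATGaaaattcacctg

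The windows of Ajuba and Ankrd1 each held 2 matches and the other genes held 1. The motif began 65 to 210 bases before the start site in every gene except Lats2, where it began at base 5 of the transcript in 1 of its 2 windows. GENCODE M21 models place the matches of Amotl2, Lats2 and Ankrd1 in untranslated exons of longer transcripts, and those of Yap1, Wwtr1, Ajuba and Ccn1 outside the gene. No relation between motif number and expression was tested.

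**Figure D1:**
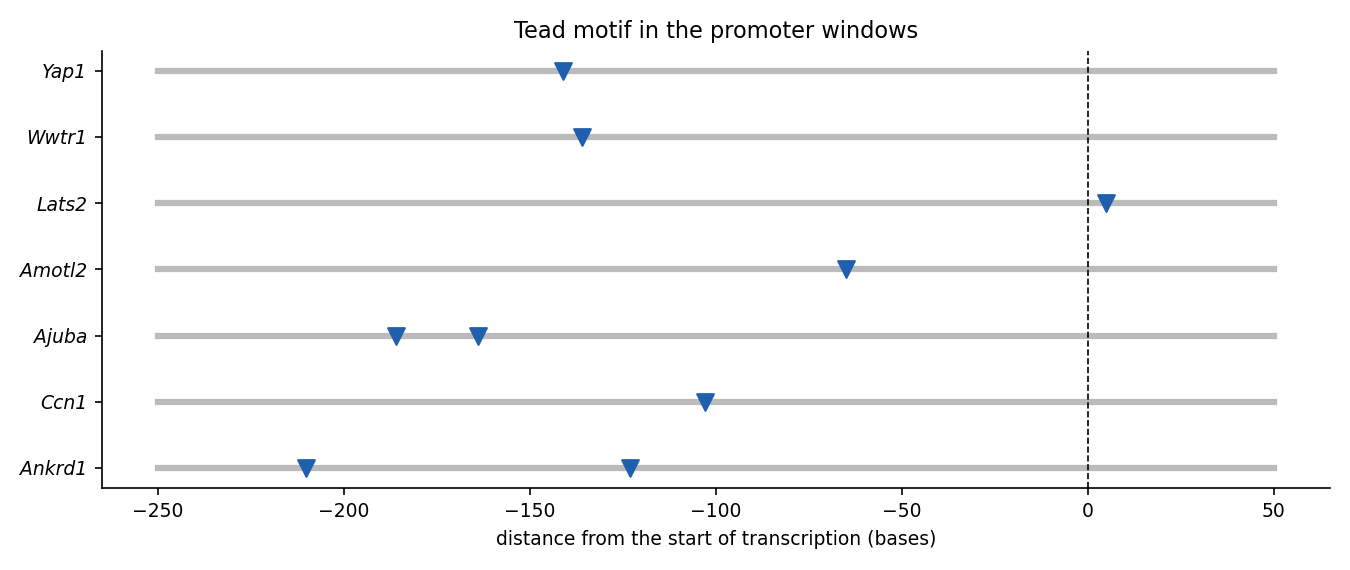
Position of the core Tead motif in the promoter window of 7 genes, as distance in bases from the RefSeq start site (dashed line at 0). Grey bars mark the window from 250 bases before to 50 bases after the start, and each triangle is 1 match, with 2 each for Ajuba and Ankrd1.

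Levels are given in CPM, which are counts scaled to the library total, and differences as log2 fold changes from limma on log2 CPM, with a Benjamini-Hochberg adjusted p over all tested genes. Total counts ranged from 20.4 to 30.8 M per library, and member counts ranged from 31 to 10050. The defining tubule markers Lrp2, Slc34a1, Umod, Slc12a1, Slc12a3, Aqp2 and Cdh16 had counts in all 24 libraries. The libraries of replicates 20 to 27, which comprise 3 RC/- D18 mice (20 to 22) and every RC/- D53 mouse, stood apart by their skeletal muscle markers. The sum of Myh4, Acta1, Ckm, Tnnt3, Myh1 and Atp2a1 was 147 to 194 CPM in these 8 libraries and 5.27 to 9.36 CPM in the other 16. Heart markers, which matter here because Ankrd1 is abundant in cardiac muscle, summed to 1.81 to 2.69 CPM in RC/+, 2.04 to 2.83 CPM in RC/-, 1.66 to 3.62 CPM in RC/- D18 and 1.97 to 3.25 CPM in RC/- D53, with Nppa at 0 in 17 of 24 libraries. Of the 4 heart markers, Tnnt2 was higher and Myh6 lower in RC/- than in RC/+ without overlap. Myh6 was also higher without overlap in RC/- D18 and in RC/- D53 than in RC/-, and in RC/- D53 than in RC/+ D53. The other 3 heart markers overlapped in each of these 3 comparisons. TMM scaling shifted all values together. In RC/- against RC/+, all tested genes had a median log2 fold change of 0.14 when scaled to total counts and of 0.01 after TMM, so a member is also given with TMM where the call differs.

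In the unedited line, 9 of the 10 genes were higher in RC/- than in RC/+ kidneys. Ankrd1 rose 11.01-fold, Ccn1 2.48-fold and Ajuba 2.45-fold, while Yap1 rose 1.23-fold and Wwtr1 1.18-fold. The median log2 fold change of the 10 genes was 0.51, compared with 0.14 over all tested genes. Of all tested genes, 37.6% passed in this comparison and 25.5% were higher, so a call by itself was frequent. With TMM factors, 7 of the 10 genes were higher, beside 17.1% of all genes. TMM also changed the share of higher genes among those called from 67.7% to 49.8%. Levels did not overlap between the RC/- and RC/+ libraries for 8 of the 10 genes, compared with 26% of tested genes in the higher direction. In whole kidney RNA, more cells that express a gene and more RNA of it per cell cannot be told apart.

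**Figure D2:**
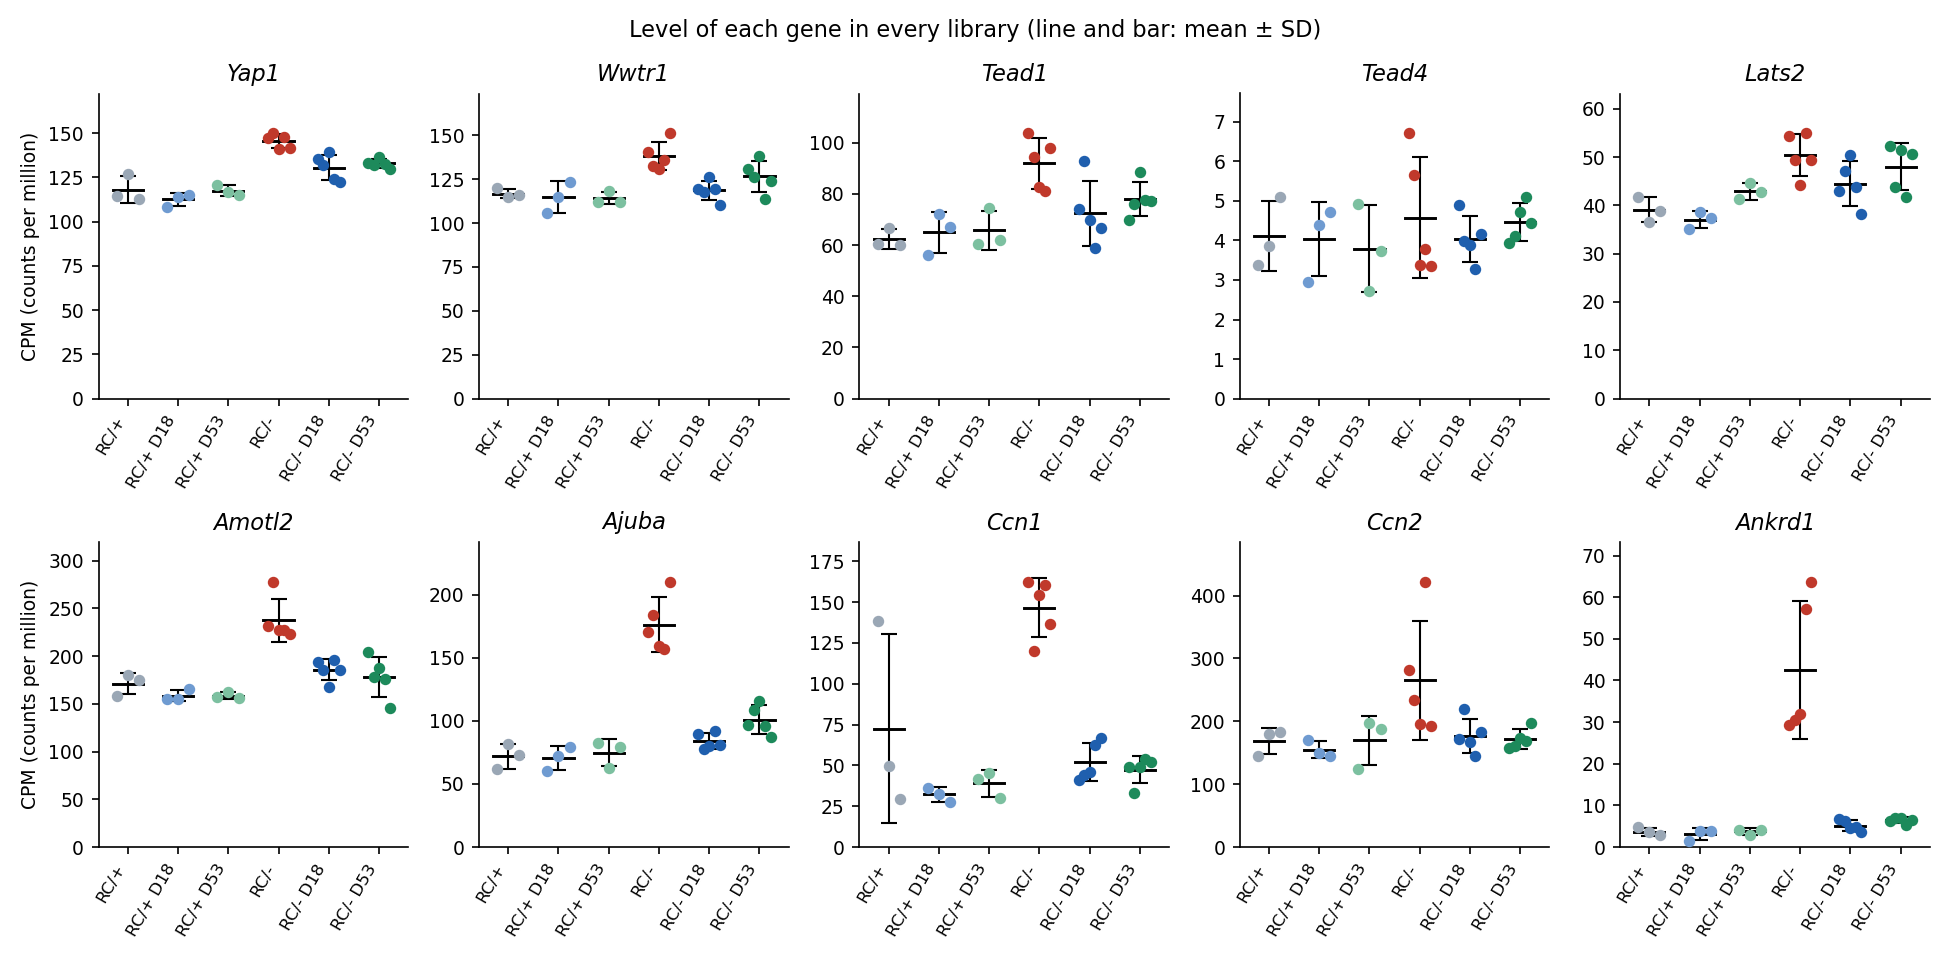
Level of the 10 genes in CPM (vertical axes from 0) in each of 24 libraries, by group, with the mean and SD as line and bar. Yap1, Ankrd1, Ajuba and Amotl2 are higher in all 5 RC/- libraries than in any library of another group, whereas Ccn1 in 1 RC/+ library lies within the RC/- range.

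Yap1, on chromosome 9 from 7931999 to 8004596 (ENSMUSG00000053110, minus strand), encodes the coactivator Yap. Its levels were 114, 127 and 113 CPM in RC/+, 109, 114 and 115 CPM in RC/+ D18 and 121, 117 and 115 CPM in RC/+ D53. The cystic kidneys had 147, 149.9, 141, 148 and 142 CPM in RC/-, 135, 132, 139, 124 and 122 CPM in RC/- D18 and 133, 132, 136, 132 and 130.0 CPM in RC/- D53. All 5 RC/- libraries were above every library of the other 5 groups. The difference between RC/- and RC/+ was 0.30 (log2, SE 0.05, adjusted p = 9.93e-05), and it was 0.16 (adjusted p = 0.0182) with TMM factors. Yap1 was lower in the edited cystic kidneys than in RC/-, at -0.16 (log2, SE 0.05, adjusted p = 0.00942) for D18 and -0.13 (log2, SE 0.05, adjusted p = 0.0387) for D53. Both of these calls were lost with TMM factors, at -0.04 (adjusted p = 0.503) and -0.05 (adjusted p = 0.491). The D53 call was also lost without any 1 of 7 of the 10 libraries (RC/- replicates 13, 14 and 16 and RC/- D53 replicates 23, 24, 26 and 27), with log2 fold changes of -0.12 to -0.13. Without RC/- D18 replicates 20 to 22, the D18 value was -0.12 (adjusted p = 0.145). In order of mean, RC/- (145 ± 3.93 CPM, SD, n = 5) exceeded its neighbour RC/- D53 (133 ± 2.33) beyond their spread, whereas the following neighbours overlapped.

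Wwtr1, on chromosome 3 from 57455649 to 57575910 (ENSMUSG00000027803, minus strand), encodes Taz, the paralog of Yap. Wwtr1 ranged from 131 to 151 CPM in RC/-, and from 115 to 119.8 CPM in RC/+. It was 110.3 to 126 CPM in RC/- D18 and 114 to 138 CPM in RC/- D53, and RC/+ D18 and RC/+ D53 had 106 to 124 and 112 to 118 CPM. The RC/- libraries thus lay above RC/+ and RC/- D18 but overlapped RC/- D53. RC/- exceeded RC/+ by 0.24 (log2, SE 0.07, adjusted p = 0.00553), a call that was lost with TMM factors at 0.10 (adjusted p = 0.17). RC/- D18 was lower than RC/-, at -0.22 (log2, SE 0.06, adjusted p = 0.00319), which was also lost with TMM factors at -0.10 (adjusted p = 0.0884). For D53 the difference was -0.13 (log2, SE 0.06, adjusted p = 0.0999), and it passed only without RC/- D53 replicate 25, at -0.16 (adjusted p = 0.0441). No neighbours in the order of group means differed beyond their spread.

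Tead1 and Tead4 encode DNA-binding partners of Yap and Taz, and Tead1 was the more abundant per length in every group mean. Tead1 (ENSMUSG00000055320, chromosome 7 from 112679318 to 112906807, plus strand) was 60.5, 66.8 and 59.9 CPM in RC/+, 56.2, 72 and 66.9 CPM in RC/+ D18 and 60.5, 74.7 and 62.2 CPM in RC/+ D53. In the cystic groups it was 104, 94.5, 82.6, 81 and 97.9 CPM in RC/-, 74, 92.9, 69.9, 59 and 66.6 CPM in RC/- D18 and 70.0, 76.2, 88.7, 77.7 and 77.2 CPM in RC/- D53. The RC/- libraries were all above RC/+, but RC/- D18 replicate 19 and RC/- D53 replicate 25 lay within the RC/- range. Tead1 rose by 0.55 (log2, SE 0.12, adjusted p = 0.000519) in RC/- against RC/+. It fell by 0.35 (log2, SE 0.10, adjusted p = 0.00664) in RC/- D18 against RC/-, while the D53 difference was -0.24 (log2, SE 0.10, adjusted p = 0.0823). The D53 difference passed without RC/- D53 replicate 25, at -0.28 (adjusted p = 0.0469). Without RC/- D18 replicates 20 to 22, the D18 difference was -0.14 (adjusted p = 0.415).

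Tead4 (ENSMUSG00000030353, chromosome 6 from 128224288 to 128300823, minus strand) had 68 to 157 counts per library. Its levels were 3.39 to 5.1 CPM in RC/+, 3.36 to 6.71 CPM in RC/-, 3.29 to 4.91 CPM in RC/- D18 and 3.92 to 5.11 CPM in RC/- D53, and the groups overlapped. RC/- replicates 13 and 14 had 6.71 and 5.66 CPM, and the other 3 RC/- libraries had 3.36 to 3.78 CPM. The RC/- against RC/+ difference was 0.11 (log2, SE 0.23, adjusted p = 0.736) with a 95% interval of -0.35 to 0.58, an interval that also holds the estimate for Tead1. Its sign was reversed with TMM factors.

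Lats2, Amotl2 and Ajuba encode regulators of Yap and Taz, and Amotl2 and Lats2 are also known Yap targets. Lats2 (ENSMUSG00000021959, chromosome 14 from 57689662 to 57758388, minus strand) encodes a kinase that phosphorylates Yap and Taz. It was 36.6 to 41.8 CPM in RC/+, 44.3 to 55 CPM in RC/-, 38.2 to 50.5 CPM in RC/- D18 and 41.8 to 52.4 CPM in RC/- D53. RC/+ D18 had 35.2 to 38.7 CPM and RC/+ D53 had 41.3 to 44.7 CPM. The RC/- libraries did not overlap RC/+ or RC/+ D18 and overlapped both edited cystic groups. They also overlapped RC/+ D53, where replicate 11 (44.7 CPM) lay above RC/- replicate 15 (44.3 CPM). Lats2 rose by 0.37 (log2, SE 0.09, adjusted p = 0.0026) in RC/-, whereas the edited kidneys differed from RC/- by -0.18 (log2, SE 0.08, adjusted p = 0.0682) for D18 and -0.07 (log2, SE 0.08, adjusted p = 0.542) for D53. The D18 difference passed without RC/- replicate 15, at -0.23 (adjusted p = 0.0282), and without RC/- D18 replicate 20, at -0.23 (adjusted p = 0.0262). The sign of the D53 difference reversed with TMM factors. Gm49361 shares 42.4% of the exon bases of Lats2 on the same strand and had 0 counts in every library. Reads that fall in both genes are not assigned to either by this kind of counting, so the level of Lats2 per length is uncertain.

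Amotl2 (ENSMUSG00000032531, chromosome 9 from 102716672 to 102733418, plus strand) encodes an angiomotin-like protein that binds Yap at cell junctions. Its levels were 158, 180.3 and 175 CPM in RC/+, 155, 155 and 166 CPM in RC/+ D18 and 157, 163 and 156 CPM in RC/+ D53. They were 232, 278, 227, 227 and 223 CPM in RC/-, 193, 186, 168, 196 and 185 CPM in RC/- D18 and 204, 178, 188, 176 and 146 CPM in RC/- D53. Every RC/- library was above every other library, including those of the edited cystic groups. Amotl2 rose by 0.47 (log2, SE 0.09, adjusted p = 0.000112) in RC/- against RC/+. It was lower than in RC/-, at -0.35 (log2, SE 0.07, adjusted p = 0.000458) in RC/- D18 and -0.42 (log2, SE 0.07, adjusted p = 0.000128) in RC/- D53.

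Ajuba (ENSMUSG00000022178, chromosome 14 from 54567472 to 54577558, minus strand) encodes a LIM-domain protein that binds Lats kinases and restrains them under tension. It had 61.6, 81.3 and 72.6 CPM in RC/+, 60.2, 71.7 and 79 CPM in RC/+ D18 and 82.1, 62.5 and 79.5 CPM in RC/+ D53. In the cystic kidneys it had 170.3, 183, 159, 157 and 210.1 CPM in RC/-, 89.2, 77.4, 79.8, 91.6 and 81 CPM in RC/- D18 and 96.3, 109, 116, 95.6 and 87 CPM in RC/- D53. The lowest RC/- library was thus well above the highest library of any other group. Ajuba rose by 1.29 (log2, SE 0.12, adjusted p = 6.46e-09) in RC/- against RC/+. It was lower than in RC/-, at -1.06 (log2, SE 0.10, adjusted p = 1.23e-08) in RC/- D18 and -0.80 (log2, SE 0.10, adjusted p = 1.69e-06) in RC/- D53. In order of mean, RC/- (176 ± 21.8 CPM) exceeded RC/- D53 (101 ± 11.5 CPM, SD, n = 5 each) beyond their spread, and RC/- D53 was followed by RC/- D18 (83.8 ± 6.22 CPM) with overlapping libraries.

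Ccn1, Ccn2 and Ankrd1 are the transcripts most often used as readouts of Yap and Taz activity. Ankrd1 (ENSMUSG00000024803, chromosome 19 from 36111961 to 36120099, minus strand) encodes an ankyrin repeat protein of muscle that is induced by stretch and injury in other cells. It had 4.7, 3.49 and 2.77 CPM in RC/+, 1.35, 3.83 and 3.88 CPM in RC/+ D18 and 4.17, 2.88 and 4.17 CPM in RC/+ D53. It had 29.2, 30.5, 31.9, 57.3 and 63.7 CPM in RC/-, 6.75, 6.13, 4.63, 4.77 and 3.52 CPM in RC/- D18 and 6.19, 7, 7, 5.21 and 6.57 CPM in RC/- D53. The RC/- libraries fell into 3 at 29.2 to 31.9 CPM and 2 at 57.3 and 63.7 CPM, and all were above every library of the other groups. Ankrd1 rose by 3.46 (log2, SE 0.30, adjusted p = 3.79e-09) in RC/- against RC/+, the largest change of the 10 genes. Relative to RC/-, it was lower in both edited groups, at -2.98 (log2, SE 0.26, adjusted p = 4.1e-09) in RC/- D18 and -2.64 (log2, SE 0.26, adjusted p = 7.81e-08) in RC/- D53. Without RC/- D18 replicates 20 to 22, which carried the skeletal muscle transcripts, the D18 value was -2.63 (adjusted p = 8.51e-06).

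Ccn1 (ENSMUSG00000028195, chromosome 3 from 145646976 to 145649981, minus strand) encodes a matricellular protein and is an immediate early gene as well as a Yap target. It had 139, 49.8 and 29.4 CPM in RC/+, 36.4, 32.8 and 27.5 CPM in RC/+ D18 and 41.5, 45.4 and 29.9 CPM in RC/+ D53. In the cystic groups it had 162, 119.8, 154, 160.2 and 136 CPM in RC/-, 41.4, 44, 46.2, 62.4 and 66.9 CPM in RC/- D18 and 48.7, 33.1, 48.8, 53.9 and 52 CPM in RC/- D53. RC/+ replicate 4 therefore lay inside the RC/- range, and the other 2 RC/+ libraries were well below it. Ccn1 rose by 1.31 (log2, SE 0.29, adjusted p = 0.000923) in RC/- against RC/+. Without RC/+ replicate 4 the value was 1.93 (adjusted p = 4.29e-07), and without RC/+ replicate 6 it was 0.81 (adjusted p = 0.0229). Both edited cystic groups were below RC/- with no overlap, at -1.51 (log2, SE 0.25, adjusted p = 3.51e-05) for D18 and -1.64 (log2, SE 0.25, adjusted p = 2.35e-05) for D53. The 3 genes most correlated with Ccn1 over the 24 libraries were the immediate early genes Ier2, Jun and Egr1. In RC/+ replicates 4, 5 and 6, Ier2 had 50.8, 33.6 and 30.0 CPM, Jun 136, 82.1 and 64.7 CPM and Egr1 47.5, 21.2 and 16.3 CPM. These libraries were part of that correlation, so the shared order follows in part from how the genes were picked. Their part in the Ccn1 result was not tested.

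Ccn2 (ENSMUSG00000019997, chromosome 10 from 24595442 to 24598683, plus strand) encodes connective tissue growth factor, a matricellular protein associated with fibrosis. It had 145, 179 and 183 CPM in RC/+, 171, 149 and 144 CPM in RC/+ D18 and 125, 197 and 187 CPM in RC/+ D53. It had 282, 233, 196, 422 and 192 CPM in RC/-, 172, 219, 166, 145 and 184 CPM in RC/- D18 and 157, 160.1, 174, 168 and 197 CPM in RC/- D53. RC/- replicate 16 stood highest, replicates 13 and 14 were also above every edited cystic library, and replicates 15 and 17 lay within the range of the edited cystic groups. Ccn2 rose by 0.59 (log2, SE 0.19, adjusted p = 0.0148) in RC/- against RC/+, a call lost with TMM factors at 0.45 (adjusted p = 0.0718) and without RC/+ replicate 4 at 0.48 (adjusted p = 0.0899). It was also lost with only the groups compared, at 0.59 (adjusted p = 0.0641), and with edgeR, at 0.51 (adjusted p = 0.0504). Without RC/- replicate 16 the value was 0.41 (adjusted p = 0.0378). The edited cystic kidneys were lower than RC/-, at -0.53 (log2, SE 0.16, adjusted p = 0.0107) for D18 and -0.57 (log2, SE 0.16, adjusted p = 0.00943) for D53. Without RC/- replicate 16 these values were -0.35 (adjusted p = 0.0416) and -0.38 (adjusted p = 0.0332). Without RC/- D18 replicates 20 to 22 the D18 value was -0.39 (adjusted p = 0.209). Gm15270 shares 23.2% of the exon bases of Ccn2 on the opposite strand, and because the strand setting of the counting is not given, reads of that stretch may be missing from the Ccn2 count.

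The edited cystic groups were then compared with RC/- across the 10 genes, where the edit and founder background cannot be told apart. In RC/- D18 against RC/-, 8 of the 10 genes were lower and none was higher, and Lats2 and Tead4 did not pass. Of all tested genes, 41.2% passed in this comparison and 26.9% were lower. In RC/- D53 against RC/-, 6 of the 10 genes were lower (Ankrd1, Ccn1, Ajuba, Ccn2, Amotl2 and Yap1), where 30.2% of all tested genes passed and 18.9% were lower. With TMM factors these counts were 6 for D18, with 19.6% of all genes lower, and 5 for D53, with 13.4% lower. TMM changed the share of higher genes among those called from 34.8% to 49.9% for D18 and from 37.4% to 52.2% for D53. Levels did not overlap and were lower in the edited group for 6 of the 10 genes in D18 and 5 in D53, beside 18.8% and 11.8% of tested genes. The median log2 fold change of the 10 genes was -0.35 for D18 and -0.33 for D53, compared with -0.10 and -0.08 over all tested genes. These comparisons and RC/- against RC/+ share the same 5 RC/- libraries, so their values are not independent of each other. Without RC/- D18 replicates 20 to 22, 5 of the 10 genes were lower in D18 (Wwtr1, Ccn1, Ankrd1, Amotl2 and Ajuba), with 2 RC/- D18 libraries left. Of all 22570 tested genes, 3731 were lower in that fit. With libraries 20 to 27 as a covariate, the count was 5 for D18 and 3 for D53 (Ccn1, Ankrd1 and Ajuba). Of all 22570 tested genes, 3764 were then lower for D18 and 936 for D53.

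**Figure D3:**
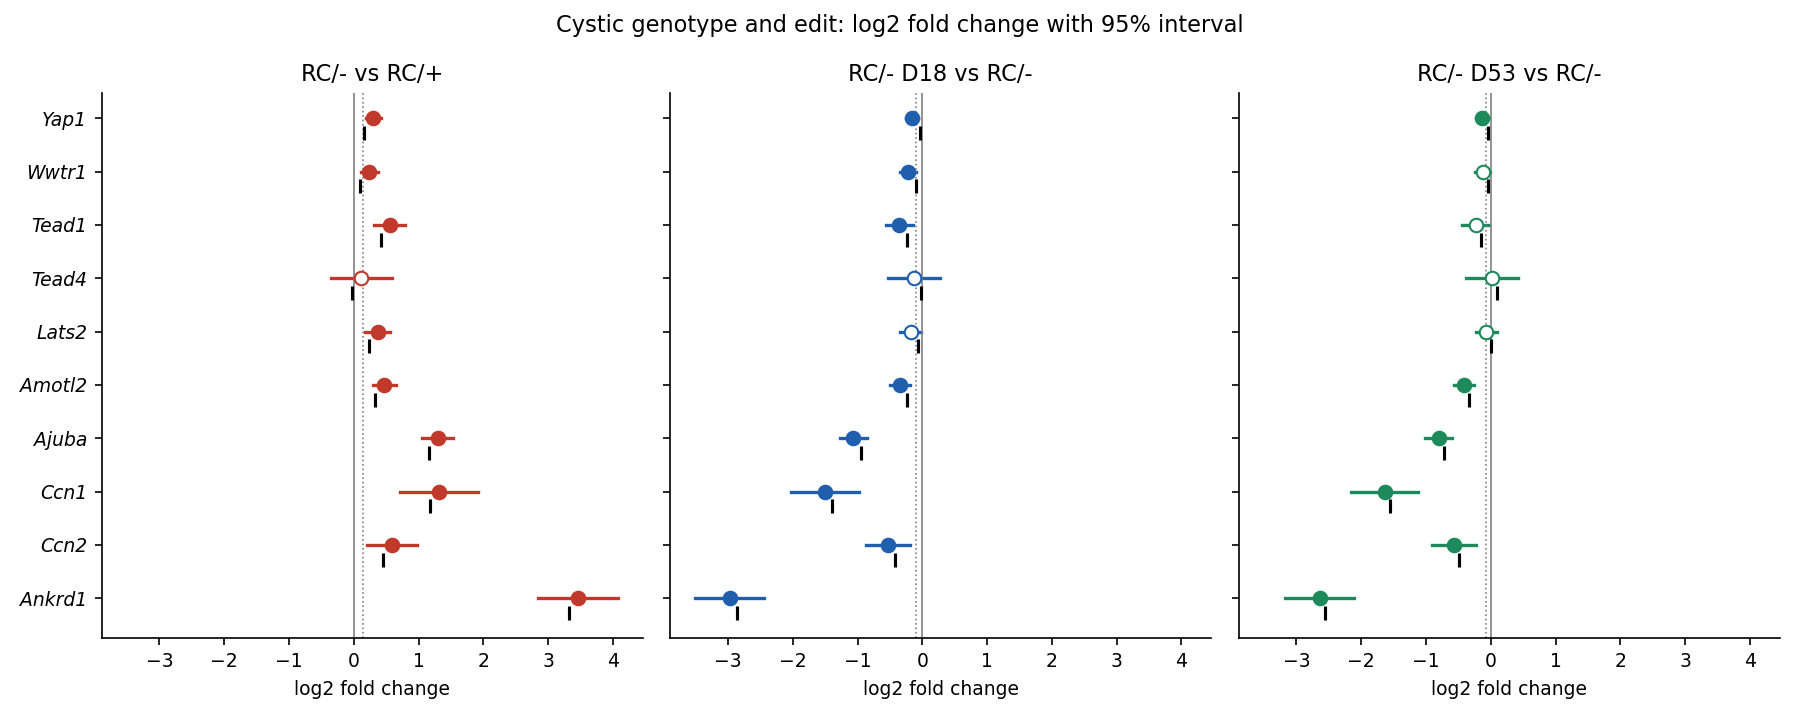
Log2 fold change of each gene (circle, filled where adjusted p is below 0.05) with its 95% interval in 3 comparisons, and the TMM value as a black tick below it; the dotted line marks the median of all tested genes. Ankrd1, Ajuba and Ccn1 lie farthest from 0 in all 3 panels, to the right for RC/- against RC/+ and to the left for both edits.

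The cystic genotype was next compared within the edited lines. In the D18 line, none of the 10 genes passed between RC/- D18 and RC/+ D18 by limma, edgeR or DESeq2, and 6 had an unadjusted p below 0.05 by limma (Yap1, Ccn1, Ankrd1, Amotl2, Lats2 and Ajuba). Of all tested genes, 0.266% passed in that line, and 2011 of the 22570 had an unadjusted p below 0.05. Each of edgeR and DESeq2 gave 4 of the 10 genes at an unadjusted p below 0.05, beside 1868 of 22570 genes by edgeR and 1615 of 16861 by DESeq2. In the D53 line 2.6% of tested genes passed, 5 of the 10 genes and 3013 of all 22570 had an unadjusted p below 0.05, and Ajuba was the single member called, higher by 0.43 (log2, SE 0.12, adjusted p = 0.043). That call was lost with TMM factors, at 0.39 (adjusted p = 0.0662), and without any 1 of 7 of the 8 libraries (RC/+ D53 replicates 10, 11 and 12 and RC/- D53 replicates 23, 24, 25 and 26), with log2 fold changes of 0.31 to 0.51. Ankrd1 differed by 0.86 (log2, SE 0.30, adjusted p = 0.317) in D18 and 0.77 (log2, SE 0.30, adjusted p = 0.22) in D53, with 95% intervals of 0.25 to 1.48 and 0.15 to 1.39. When the model held only the groups compared, Ankrd1 passed in D53, at 0.77 (adjusted p = 0.019). These intervals lie below that of the unedited line, 2.84 to 4.08. All 10 fitted differences were above 0 in both lines, although with TMM factors Tead4 was below 0 in D18 and Ccn2 in D53. Levels did not overlap for Yap1, Ccn1 and Amotl2 in D18, beside 3.85% of tested genes in this direction, and for Yap1, Ankrd1 and Ajuba in D53, beside 8.12%.

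The difference between the lines was tested directly by interaction contrasts, which subtract the RC/- against RC/+ difference of the unedited line from that of an edited line. Ankrd1 and Ajuba passed in both lines, and the other 8 genes did not. For Ankrd1 the contrast was -2.60 (log2, SE 0.42, adjusted p = 0.000161) in D18 and -2.69 (log2, SE 0.42, adjusted p = 0.000353) in D53. For Ajuba it was -1.03 (log2, SE 0.16, adjusted p = 0.000124) in D18 and -0.86 (log2, SE 0.16, adjusted p = 0.00156) in D53. Of all tested genes, 17.1% passed the D18 contrast and 11.3% the D53 contrast, and 10.8% and 6.55% passed in the negative direction. Both contrasts use the same RC/+ and RC/- libraries. Ccn1 had contrasts of -0.63 (log2, SE 0.41, adjusted p = 0.33) and -1.03 (log2, SE 0.41, adjusted p = 0.113), and both passed without RC/+ replicate 4, at -1.25 (adjusted p = 0.00473) and -1.64 (adjusted p = 0.00153). Tead1 had -0.41 (log2, SE 0.16, adjusted p = 0.0939) in D18, and passed without RC/+ D18 replicate 7, at -0.51 (adjusted p = 0.0401), or without RC/- D18 replicate 19, at -0.50 (adjusted p = 0.019). Yap1 had contrasts of -0.09 (log2, SE 0.08, adjusted p = 0.476) in D18 and -0.12 (log2, SE 0.08, adjusted p = 0.337) in D53, with 95% intervals of -0.25 to 0.07 and -0.28 to 0.04, and with TMM factors the D18 value was 0.01.

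**Figure D4:**
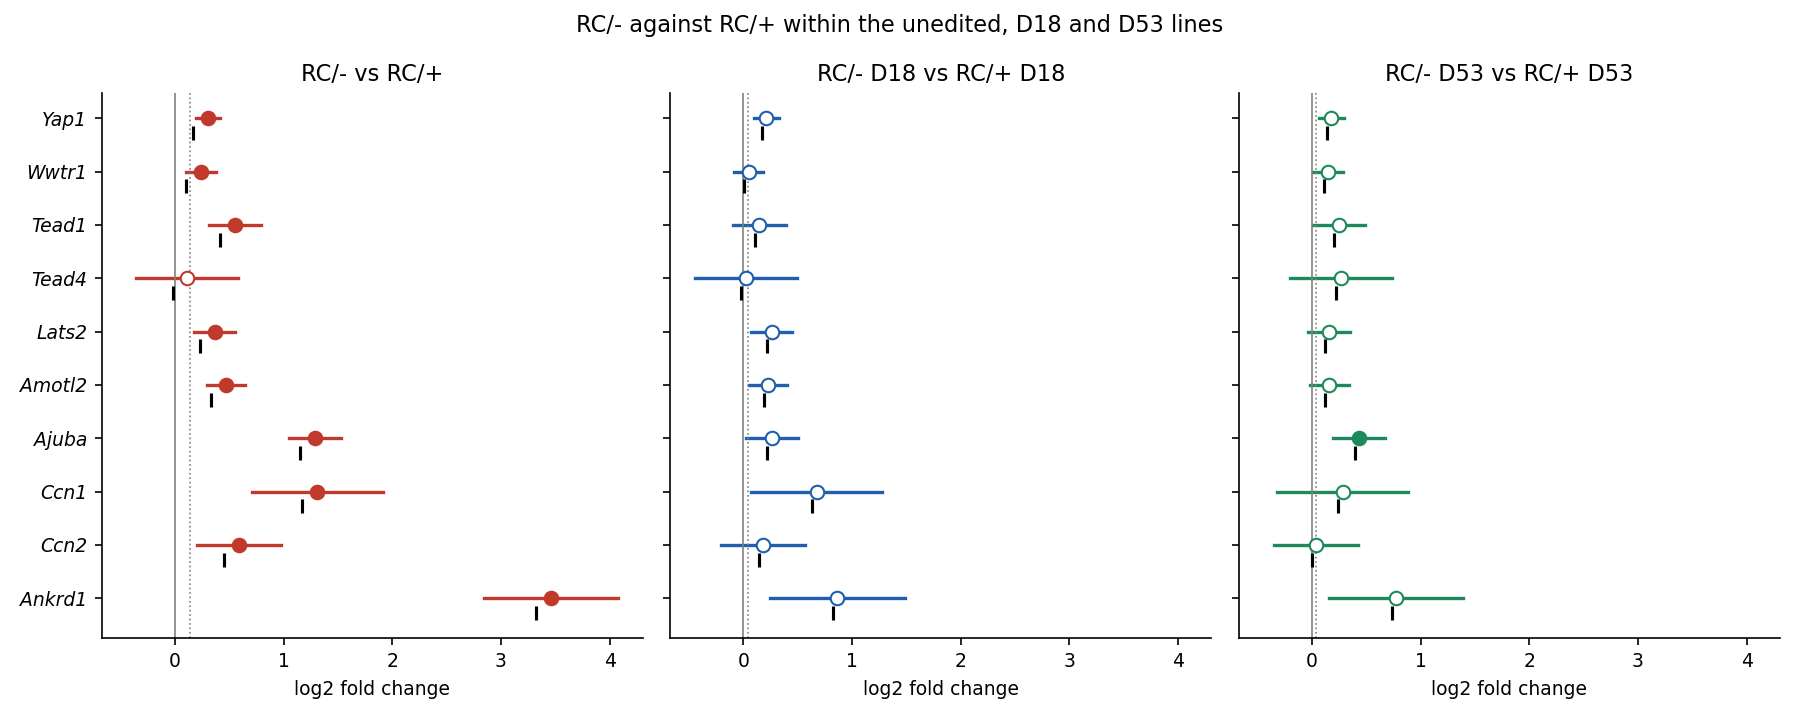
Log2 fold change of RC/- against RC/+ in the unedited, D18 and D53 lines for each gene, with 95% intervals, filled circles where adjusted p is below 0.05, TMM values as black ticks and the median of all tested genes as a dotted line. In the unedited line 9 circles are filled, in D18 none and in D53 1 (Ajuba).

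Edited with unedited RC/+ kidneys, and RC/- D53 with RC/- D18, were compared last. In RC/+ kidneys, none of the 10 genes passed in D18 or in D53 against RC/+ by limma, edgeR or DESeq2, where 0.00443% and 0.0% of all tested genes passed by limma. Ccn1 alone had an unadjusted p below 0.05 by limma, at a difference of -0.87 (log2, SE 0.33, adjusted p = 0.983) in RC/+ D18, beside 1013 of all 22570 tested genes, and RC/+ replicate 4 was in this comparison as well. In RC/+ D53, edgeR and DESeq2 each gave 1 of the 10 genes at an unadjusted p below 0.05 and limma gave 0. Over all genes, edgeR gave 532 of 22570, DESeq2 505 of 22547 and limma 525 of 22570. Between RC/- D53 and RC/- D18, none of the 10 genes passed by limma, edgeR or DESeq2. Ajuba was the single one of them with an unadjusted p below 0.05, at 0.26 (log2, SE 0.10, adjusted p = 0.28). By limma, 2993 of all 22570 tested genes had an unadjusted p below 0.05 in this comparison. Of all tested genes, 0.266% passed there. The 95% interval for Ankrd1 was -0.20 to 0.87 and that for Yap1 was -0.07 to 0.12.

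A further 44 genes of the pathway in 4 lists were examined, of which 43 were tested and Vgll2 was too low. The lists were chosen with earlier results of these data known, and no list was tested as a set. In RC/- against RC/+, 25 of the 43 genes were higher and 3 lower, with a median log2 fold change of 0.30 compared with 0.14 over all tested genes. Of all tested genes, 25.5% were higher and 37.6% were called. TMM factors gave 20 higher and 5 lower, beside 17.1% of all genes higher. In RC/- D18 against RC/-, 4 were higher and 24 lower, where 41.2% of all tested genes passed and 26.9% were lower. In RC/- D53 against RC/-, 3 were higher and 22 lower, where 30.2% of all passed and 18.9% were lower. Within the edited lines, none of the 43 passed in D18 by limma, edgeR or DESeq2 (8 had an unadjusted p below 0.05 by limma, beside 2011 of all 22570 genes), and 5 passed in D53, where 2.6% of all tested genes passed. The interaction contrast with the unedited line passed for 15 of the 43 genes in D18 (13 negative, 2 positive) and for 8 in D53 (all negative), beside 17.1% and 11.3% of all tested genes.

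The 14 genes of the kinase cassette and its upstream regulators restrain Yap and Taz. In RC/- against RC/+, 7 were higher and 7 did not pass, with a median log2 fold change of 0.22, beside 25.5% of all genes higher and their median of 0.14. TMM factors left 3 of the 14 higher, beside 17.1% of all genes, a share near that background. Mob1a, a coactivator of the Lats kinases, rose by 0.44 (log2, SE 0.08, adjusted p = 8.3e-05). Map4k4, a kinase that can phosphorylate Lats, rose by 0.52 (log2, SE 0.11, adjusted p = 0.000405), and Wwc1, the scaffold protein Kibra, by 0.42 (log2, SE 0.10, adjusted p = 0.00125). Of the 8 junction and polarity genes, 4 were higher and 4 did not pass, while TMM factors gave 4 higher and 2 lower. Scrib, a polarity scaffold, rose by 0.59 (log2, SE 0.08, adjusted p = 3.17e-06). Ptpn14, a phosphatase that binds Yap, rose by 0.67 (log2, SE 0.14, adjusted p = 0.000598), and Wtip, a relative of Ajuba, by 0.39 (log2, SE 0.09, adjusted p = 0.00189).

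All 5 tested genes among the other Tead factors and the vestigial-like cofactors, which compete with Yap for Tead or act with it, were higher in RC/- than in RC/+, with a median log2 fold change of 1.12. Of all tested genes, 25.5% were higher, with a median of 0.14. TMM factors left 4 of the 5 higher, beside 17.1% of all genes. Vgll3 rose by 2.39 (log2, SE 0.23, adjusted p = 1.54e-08), from 2.9 to 3.72 CPM in RC/+ to 13.3 to 24.1 CPM in RC/-, and was 2.77 to 5.77 CPM in RC/- D18 and 3.62 to 7.11 CPM in RC/- D53. Tead2 rose by 1.12 (log2, SE 0.22, adjusted p = 0.000251) and Tead3 by 0.60 (log2, SE 0.10, adjusted p = 3.75e-05). Vgll1 was also called but reached only 1.18 CPM and was at 0 in 1 or more libraries of 5 groups. These 5 genes were all lower in RC/- D18 and in RC/- D53 than in RC/-, where 26.9% and 18.9% of all tested genes were lower.

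Among the 16 other reported Yap and Taz target genes, 9 were higher, 3 lower and 4 did not pass in RC/- against RC/+, and TMM factors gave the same counts. Of all tested genes, 37.6% passed and 25.5% were higher, and 17.1% were higher with TMM factors. Tgfb2, a cytokine, rose by 2.18 (log2, SE 0.18, adjusted p = 1.56e-09). Myof, a membrane repair protein, rose by 1.46 (log2, SE 0.09, adjusted p = 2.58e-11), and Fjx1, the four-jointed kinase homolog, by 1.58 (log2, SE 0.13, adjusted p = 1.56e-09). The 3 lower genes were Nt5e, an ectonucleotidase, at -0.64 (log2, SE 0.11, adjusted p = 8.81e-05), Dock5, a guanine nucleotide exchange factor, at -0.41 (log2, SE 0.11, adjusted p = 0.00403), and Igfbp3, which binds insulin-like growth factors, at -0.43 (log2, SE 0.15, adjusted p = 0.0217). In the D53 line, Tgfb2 was higher in RC/- than in RC/+ by 1.12 (log2, SE 0.18, adjusted p = 0.000419), F3, the gene for tissue factor, by 0.79 (log2, SE 0.14, adjusted p = 0.00113), Fjx1 by 0.55 (log2, SE 0.13, adjusted p = 0.0176) and Myof by 0.52 (log2, SE 0.09, adjusted p = 0.00121), whereas Nt5e was lower at -0.44 (log2, SE 0.11, adjusted p = 0.0334). Of all tested genes, 2.6% passed within the D53 line. Tgfb2 was also the single pathway gene called by limma and by edgeR between RC/- D53 and RC/- D18 (DESeq2 called Fjx1 as well), at 0.82 (log2, SE 0.15, adjusted p = 0.0163). There, 0.266% of all tested genes passed by limma.

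**Figure D5:**
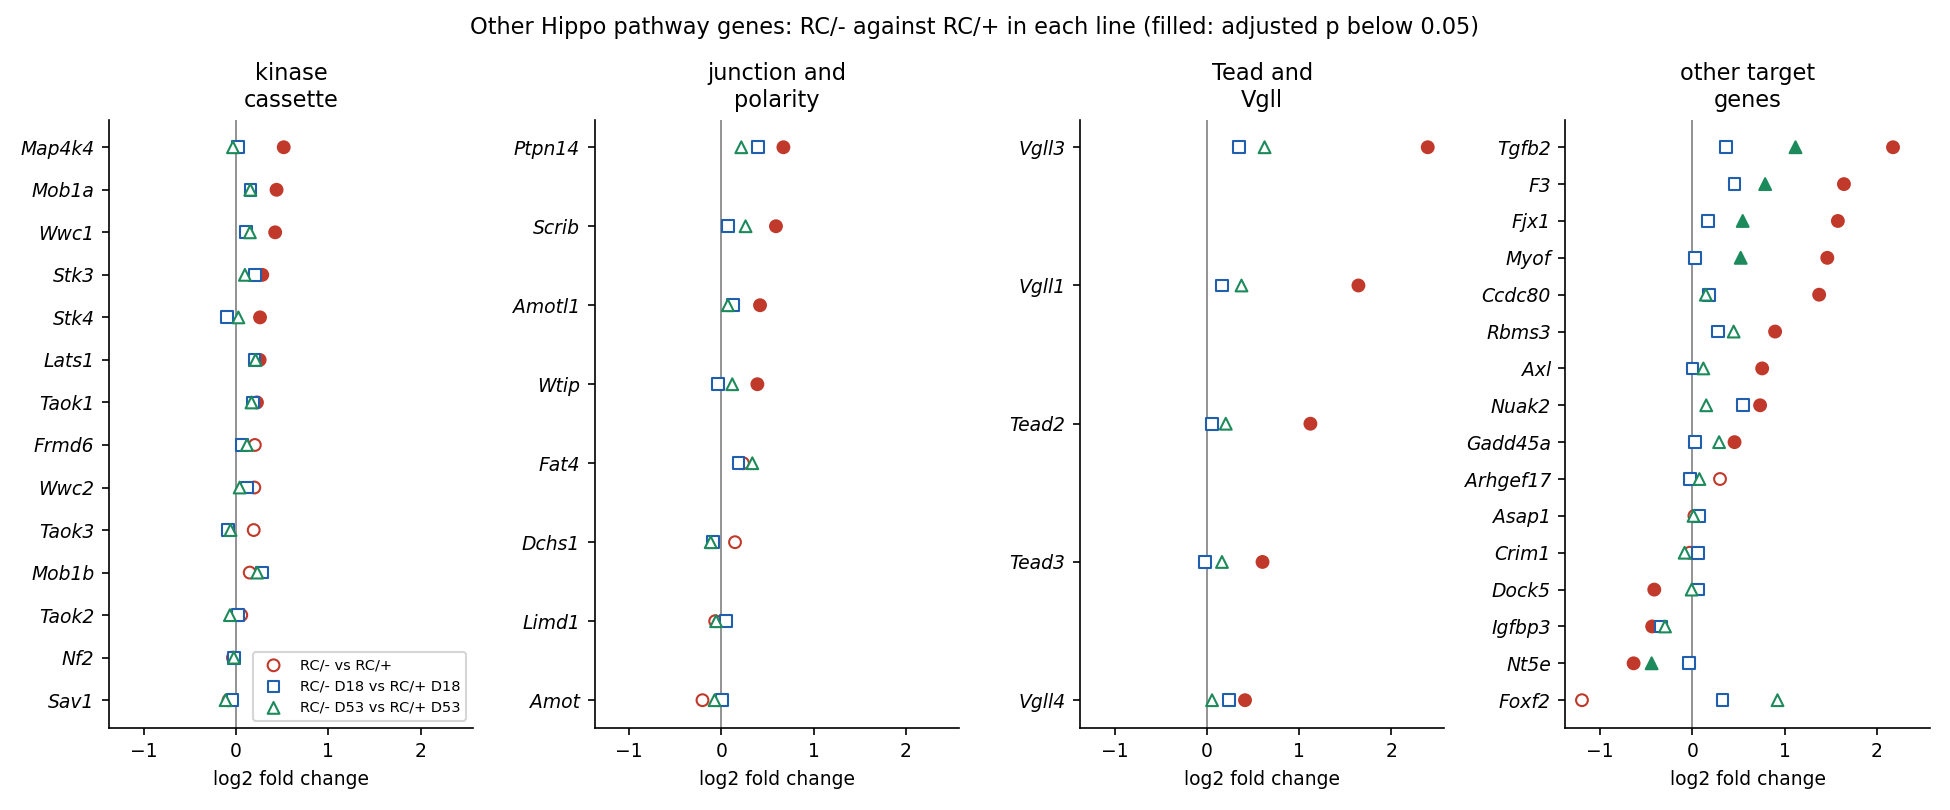
Log2 fold change of RC/- against RC/+ for 43 other pathway genes in 4 lists, in the unedited line (circles), D18 (squares) and D53 (triangles), filled where adjusted p is below 0.05. Most filled symbols belong to the unedited line, and the 5 filled triangles are Tgfb2, F3, Fjx1, Myof and Nt5e.

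Markers of several cell types moved with the cystic genotype. The 8 fibroblast markers summed to 3361 to 5563 CPM in RC/- and 1472 to 2059 CPM in RC/+, and 7 of the 8 did not overlap between these groups. Of all tested genes, 26% were higher in RC/- than in RC/+ without overlap. In RC/- D18 and RC/- D53 the sums were 938 to 2594 CPM and 1751 to 2979 CPM. The 6 macrophage markers summed to 364 to 621 CPM in RC/- and 190.1 to 206 CPM in RC/+, with all 6 higher without overlap. They summed to 238 to 262 CPM in RC/- D18 and 259 to 346 CPM in RC/- D53. Against RC/+ D18, 2 of the 6 macrophage markers were higher in RC/- D18 without overlap, beside 3.85% of all tested genes. Against RC/+ D53, 5 of the 6 were higher in RC/- D53 without overlap, beside 8.12%. The 8 fibroblast markers overlapped in both of these comparisons. The 7 tubule markers summed to 5104 to 8972 CPM in RC/- and 10805 to 12011 CPM in RC/+, with 5 of the 7 lower without overlap, and the 5 podocyte markers to 276 to 396 CPM and 540.1 to 549.9 CPM, with 4 of the 5 lower and Synpo higher. Endothelial markers (6 genes) summed to 471 to 620.1 CPM and 531 to 685 CPM, with 2 of the 6 lower, and urothelial markers (4 genes) to 12.2 to 157 CPM and 25.4 to 73.1 CPM. By adjusted p in limma, 2744 of all 22570 tested genes were lower in RC/- than in RC/+. The share lower without overlap is not given here, so the counts of lower markers have no matched background. In RC/- D18 and RC/- D53 the tubule sums were 10752 to 12792 CPM and 8749.9 to 12577 CPM. The podocyte sums there were 475 to 667 CPM and 477 to 589.8 CPM. The part of these shifts in the levels of the 10 genes was not tested.

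For each gene the 3 most similar expression patterns were listed by Pearson correlation of log2 CPM over the 24 libraries, as a description that follows mainly the contrast of RC/- with the other groups. Ankrd1 was most like Sorbs2 (r = 0.982), Tnfrsf12a (r = 0.974) and Mrc1 (r = 0.974), where Mrc1 is a macrophage marker. Mrc1 had 11.6 to 14.2 CPM in RC/+ and 37.6 to 69.4 CPM in RC/-, and 11.1 to 19.6 and 16.1 to 23.1 CPM in RC/- D18 and RC/- D53. Ajuba was most like Zbtb42 (r = 0.967), Slc7a1 (r = 0.967) and Cdh3 (r = 0.967). Ccn1 was most like the immediate early genes Ier2 (r = 0.95), Jun (r = 0.936) and Egr1 (r = 0.913). Yap1 was most like Inka2 (r = 0.933), Fras1 (r = 0.921) and Dubr (r = 0.92), Wwtr1 like Bmpr1a (r = 0.927), Ikzf4 (r = 0.925) and Eps15 (r = 0.923), and Tead1 like Marf1 (r = 0.906), Raph1 (r = 0.895) and Dip2b (r = 0.892). Amotl2 was most like Evpl (r = 0.92), Zmynd8 (r = 0.917) and Epn3 (r = 0.908), Lats2 like Tmem263 (r = 0.913), Arf4 (r = 0.906) and Sept7 (r = 0.881), and Ccn2 like Gm10800 (r = 0.887), Adh7 (r = 0.87) and Lpar1 (r = 0.846). Tead4, with its low counts, had the weakest matches, AC169509.1 (r = 0.732), Pde1b (r = 0.711) and Gm36033 (r = 0.683).

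Levels were finally compared between genes per length, as the group mean in CPM per kilobase of exon (SD, n = 3 in the RC/+ groups and n = 5 in RC/-). Ccn2 was the most abundant of the 10 genes when averaged over all 24 libraries, at 66.2 ± 20.8 CPM per kilobase (SD, n = 24). Wwtr1 exceeded Yap1 in every library, with means over the 24 libraries of 25.8 ± 2.3 and 13.9 ± 1.33 CPM per kilobase. For other genes the order turned between groups. Ccn1 was 72.6 ± 8.97 CPM per kilobase in RC/-, above Amotl2 (37.7 ± 3.64) and Wwtr1 (28.9 ± 1.71). In RC/+ D18 it was 16 ± 2.21 CPM per kilobase, below Amotl2 (25.2 ± 0.989) and Wwtr1 (24 ± 1.85). Ankrd1 was 14.7 ± 5.74 CPM per kilobase in RC/-, above Lats2 (7.24 ± 0.624) and Tead1 (6.78 ± 0.725). In RC/+ it was 1.27 ± 0.337 CPM per kilobase, below Lats2 (5.61 ± 0.373) and Tead1 (4.6 ± 0.284) and within the spread of Tead4 (1.14 ± 0.246).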

How the data were processed

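Total RNA from whole kidneys of 24 mice was sequenced. Per the methods of the study and the submitters' processing notes, the authors trimmed reads with Trim Galore 0.6.3 and aligned them with STAR 2.5.3a to GRCm38 with Ensembl gene models. They deposited 1 table of raw gene counts per library. STAR counts only reads that fall in a single gene, so genes that share exons lose reads. Which strand was counted is not given in the sources used here. Groups were taken from the sample titles. No value depends on fold changes computed by the authors.

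Counts were scaled to library totals and taken to log2 CPM, adding a prior count of 2. A gene was tested if its log2 CPM, averaged over the 24 libraries, reached -3 (22570 genes). One limma-trend model with 6 group means was fitted (limma 3.58.1, edgeR 4.0.16, R 4.3.3), and all tests were two-sided with Benjamini-Hochberg adjustment over all genes and a threshold of 0.05. Every adjusted p comes from limma unless another tool is named. Intervals are 95% confidence intervals of the fitted log2 fold change. Interaction contrasts subtract the cystic difference of the unedited line from that of an edited line. The scripts were tested on simulated data. Alternatives were TMM factors, edgeR quasi-likelihood, DESeq2 1.42.0, no expression filter, a prior count of 0.5, only the compared groups, a covariate for libraries 20 to 27 and leaving out each library. Leaving out RC/- D18 replicates 20 to 22 was added after seeing the data. Each library is 1 mouse, so p-values measure the spread between mice, and litter is not given in the labels.

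All 10 members are described. Of each of 4 lists of other pathway genes, up to 3 genes with the smallest adjusted p in each direction in RC/- against RC/+ were named, with any gene called within an edited line, and for each member the 3 genes with the highest correlation were named. Vgll1 was named after its values were seen. The members and lists were chosen with earlier results of these data known. Gene coordinates are from Ensembl-style annotation of GRCm38 (GENCODE M21), and promoter sequences from RefSeq (GRCm38.p6).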

Additional observations from a re-analysis of the deposited data

Results flagged for a closer look

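Each of the 10 genes was tested within each group of 5 libraries for a library far from the others (Dixon's test). Of these 30 sets of 5 values, 2 held a library that stood apart, where about 1 in 20 does so by chance. The sets reuse the same libraries, so they are not independent. Ccn1 in RC/- D53 replicate 24 was 33.1 CPM, below the other 4 libraries of its group. Amotl2 in RC/- replicate 14 was 278 CPM, above the other 4.

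The cystic difference of Ankrd1 and Ajuba differed between lines by the interaction test in limma. For Ankrd1 the contrast with the unedited line was -2.60 on the log2 scale in D18 (adjusted p = 0.000161) and -2.69 in D53 (adjusted p = 0.000353). For Ajuba it was -1.03 in D18 (adjusted p = 0.000124) and -0.86 in D53 (adjusted p = 0.00156). Every RC/- library was above every RC/- D18 and RC/- D53 library for both genes. The RC/- D53 group and 3 of the 5 RC/- D18 libraries carried skeletal muscle transcripts, and their part in the contrasts was not tested beyond the following values. When RC/- D18 replicates 20 to 22 were left out, the D18 contrast was -2.25 (adjusted p = 0.00411) for Ankrd1 and -1.04 (adjusted p = 0.00154) for Ajuba. With a covariate for libraries 20 to 27, which for D53 is estimated from the RC/- D18 libraries alone, the D53 contrast was -2.10 (adjusted p = 0.0485) for Ankrd1 and -0.87 (adjusted p = 0.0447) for Ajuba.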

How the results depend on the processing

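No paired analysis was possible because the replicate numbers run from 4 to 27 and no number occurs in more than 1 group. Of the values for single genes, 1186 kept their direction and side of the threshold under an alternative, 44 no longer passed, 9 passed newly and 41 changed sign, and none of those that changed sign was called in the reported fit.
With libraries 20 to 27 as a covariate, 5 of the 10 genes passed in RC/- D18 against RC/- and 3 in RC/- D53 against RC/-, where the covariate is estimated from the RC/- D18 libraries alone. Of all 22570 tested genes, 6218 and 1796 passed in these 2 comparisons. The numbers of pathway genes were then 6 in RC/- D53 against RC/- and 2 in RC/- D53 against RC/+ D53, beside 1796 and 287 of all tested genes. Without RC/- D18 replicates 20 to 22, 5 of the 10 genes passed in RC/- D18 against RC/-, beside 6120 of all 22570 tested genes. In RC/- D53 against RC/+ D53, 0 of the 10 genes passed with TMM factors, without an expression filter, with the covariate or with edgeR. With only the compared groups 2 passed (Ankrd1 and Ajuba), beside 765 of all 22570 tested genes, where the reported fit called 587.
Leaving out 1 library at a time gave 8 to 9 genes in RC/- against RC/+ and in RC/- D18 against RC/-, 5 to 8 in RC/- D53 against RC/-, 0 to 1 in RC/- D53 against RC/+ D53 and 2 to 3 in each interaction. For pathway genes it gave 0 to 1 in RC/- D18 against RC/+ D18 and 3 to 5 in RC/- D53 against RC/+ D53. The share of all tested genes called in these fits is not given here. Log2 fold changes of 3 genes crossed 0. Tead4 ranged from -0.037 to 0.28 in RC/- against RC/+, -0.22 to 0.022 in RC/- D18 and -0.078 to 0.17 in RC/- D53 against RC/-, -0.18 to 0.15 within D18, and -0.30 to 0.058 and -0.062 to 0.35 in the D18 and D53 interactions. Wwtr1 ranged from -0.010 to 0.10 within D18 and Ccn2 from -0.17 to 0.16 within D53.
Signs also changed under other settings. In RC/- against RC/+, Tead4 was -0.022 with TMM. In RC/- D18 against RC/-, Tead4 was 0.0082 with the covariate and 0.0082 without replicates 20 to 22. In RC/- D53 against RC/-, Tead1 was 0.11 with the covariate and Lats2 was 0.0097 with TMM, 0.012 with edgeR and 0.0049 with DESeq2. Within D18, Tead4 was -0.019 with TMM, -0.029 with edgeR and -0.028 with DESeq2. Within D53, Ccn1 was -0.15 with the covariate and Ccn2 was -0.00012 with TMM, -0.023 with edgeR and -0.028 with DESeq2. In the D18 interaction, Yap1 was 0.0076 with TMM, 0.010 with edgeR and 0.0069 with DESeq2, and Tead4 was 0.0036 with TMM, 0.044 with the covariate and 0.044 without replicates 20 to 22. In the D53 interaction, Wwtr1 was 0.0042 with TMM and 0.0047 with edgeR, and Tead1 was 0.043 with the covariate. The cause was not tested. The lowest counts per library were 31 for Ankrd1 and 68 for Tead4.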
